A study of Mus musculus with 3 samples.

Results

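The 6 genes described here encode the mouse calcium release channels of the endoplasmic reticulum, the ryanodine receptors Ryr1, Ryr2 and Ryr3 and the inositol trisphosphate (IP3) receptors Itpr1, Itpr2 and Itpr3. They were chosen by name, as a gene family, from 31055 features of the raw count matrices, and with their levels in these nuclei already known. All 6 were present in each matrix. Nuclei came from the olfactory bulb (OB) of 3 adult male C57Bl/6 mice. Each had been injected with retroAAV-CAG-H2B-GFP, a virus that travels from axon endings back to the nucleus, in 2 cortical targets of OB axons, the anterior olfactory nucleus (AON) and the PCx (piriform cortex). GFP-positive nuclei were sorted and their RNA was counted with 10x single-nucleus sequencing, 1 library per mouse. The mice form 1 group, so that no treatment is compared, and the comparisons below are between cell types within the same mice. The CAG promoter is active in most cell types, and the sort retained many nuclei that are not of projection neurons.

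Both receptor families release calcium that has been pumped into the endoplasmic reticulum. Ryanodine receptors open when cytosolic calcium rises, and in muscle they are coupled to voltage-gated calcium channels of the plasma membrane. IP3 receptors open when phospholipase C, activated for example by Gq-coupled receptors, produces IP3. Ryr1 is known as the skeletal muscle isoform, Ryr2 as the isoform of heart and brain, Itpr1 as the main neuronal IP3 receptor, and Itpr2 as the IP3 receptor of astrocytes.

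The retained 31703 nuclei carry the study's labels of 22 clusters and, for 7504 of them, of 10 subclusters of excitatory neurons. The labels are numbers, and were named here from marker genes. Of the subclusters, 7 carried the markers of the mitral cell types M1, M2 and M3 and of the tufted cell types T1, ET1, ET2 and ET4 and are called M1-like, T1-like and so on (6346 nuclei). Because the study picked those markers from these same nuclei, the names are no independent evidence, and a difference from the study's own types may come from the rebuilt names. Subclusters 2 and 8 stayed unnamed, and subcluster 9 (89 nuclei, fewer than 10 in at least 1 mouse) was left out of the comparisons. A further 10 clusters (21236 nuclei) carried inhibitory neuron markers, among them cluster 6, which also carried the dopaminergic markers of periglomerular cells. Cluster 21 (103 nuclei, 9 of them in mouse 1) carried these markers too, but stayed unnamed for its low depth, a median of 2240 UMIs, and was left out. Levels are given in CPM, the UMIs (unique molecular identifiers, counted RNA molecules) of a gene per 1000000 UMIs of all nuclei of a type in 1 mouse. The 21 libraries of the 7 types held between 161593 and 16961469 UMIs, and the smallest was that of the M1-like type in mouse 1, with 14 nuclei. Since the clusters were formed from the same counts, differences between them are given with their spread over mice and without p-values. Retained barcodes were shared between mice 1 and 2 in 39 cases, between mice 1 and 3 in 8 and between mice 2 and 3 in 35.

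All members are long genes, so that most of the transcribed sequence is intronic. In GRCm38 coordinates (GENCODE M21), Ryr1 (ENSMUSG00000030592) occupies chr7:29003344-29125179 on the minus strand, 121.836 kb with 106 exons in its longest transcript. Ryr2 (ENSMUSG00000021313) lies at chr13:11553102-12106945 on the minus strand and Ryr3 (ENSMUSG00000057378) at chr2:112631355-113217096 on the minus strand, with spans of 553.844 and 585.742 kb. Itpr1 (ENSMUSG00000030102) lies at chr6:108213096-108551109 on the plus strand. Itpr2 (ENSMUSG00000030287), on the same chromosome, lies at chr6:146108299-146502223 on the minus strand. Itpr3 (ENSMUSG00000042644) is the shortest, at chr17:27057304-27122223 on the plus strand, 64.92 kb. Reads that do not tell the paralogs apart are few by sequence: any pair of members shared at most 5 of their 31-base words over all annotated transcripts.

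The sequences before the annotated start of the gene are shown for the 3 members whose window lies outside the annotated transcript, to set the most type-restricted ryanodine receptor gene beside the broadly detected Ryr2 and the glial Itpr2. Of the 6 members, 4 matched the RefSeq table, and the window of Itpr3, which overlaps the gene in RefSeq, is not shown. The sequences come from RefSeq (GRCm38.p6), read 5′ to 3′ on the gene's strand and end at the base before the RefSeq gene. Capitals mark the GC box, GGGCGG on either strand, to which Sp-family factors bind.

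Ryr1, chr7:29125180-29125401, minus strand: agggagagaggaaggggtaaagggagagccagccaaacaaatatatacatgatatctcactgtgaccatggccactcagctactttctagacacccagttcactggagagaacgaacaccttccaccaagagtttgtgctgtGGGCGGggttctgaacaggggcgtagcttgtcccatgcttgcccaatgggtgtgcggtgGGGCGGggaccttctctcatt

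Ryr2, chr13:12106946-12107195, minus strand: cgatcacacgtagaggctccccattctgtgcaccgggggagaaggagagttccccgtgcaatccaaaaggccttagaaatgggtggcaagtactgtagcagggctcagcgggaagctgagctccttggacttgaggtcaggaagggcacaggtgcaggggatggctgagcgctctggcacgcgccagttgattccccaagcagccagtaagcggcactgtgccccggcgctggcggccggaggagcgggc

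Itpr2, chr6:146502259-146502473, minus strand: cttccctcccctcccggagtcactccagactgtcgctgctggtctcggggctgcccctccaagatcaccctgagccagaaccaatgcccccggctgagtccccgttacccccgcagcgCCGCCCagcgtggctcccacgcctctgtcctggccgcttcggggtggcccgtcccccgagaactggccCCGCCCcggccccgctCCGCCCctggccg

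Ryr1 held 2 GC boxes and 5 CG dinucleotides in 222 bases at 53.6% GC. Ryr2 held no GC box and 14 CG dinucleotides in 250 bases at 63.2% GC, and Itpr2 held 3 GC boxes and 19 CG dinucleotides in 215 bases at 74.0% GC. Of 32851 RefSeq windows of 250 bases before a start, 32.7% held a GC box on either strand, and their median GC content was 52.4%, with a median of 6 CG dinucleotides. TATAAA (in 12.4% of windows), the cyclic AMP response element TGACGTCA (1.55%) and the T-box element AGGTGTGA (1.12%), searched on both strands, matched none of the 3 sequences. Such matches describe these letters only and say nothing about binding in these nuclei.

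Ryr1 was the most unevenly distributed member among projection neurons. In T1-like nuclei it measured 168 CPM in mouse 1, 180 in mouse 2 and 191 in mouse 3 (mean 179.7 ± 11.7, SD, n = 3). M2-like nuclei came next with 84.2, 71.3 and 68.2 CPM in mice 1, 2 and 3, followed by ET1-like nuclei with 40.4, 36.4 and 45.2 CPM. These 3 types did not overlap: every library of a higher type lay above every library of the next. M3-like nuclei measured 18.2, 41.5 and 20.9 CPM and overlapped with the ET1-like libraries. ET2-like, M1-like and ET4-like nuclei formed the low end, at 8.12 ± 6.00, 5.25 ± 0.809 and 4.59 ± 1.25 CPM, and their libraries overlapped with each other. The mean in T1-like nuclei was 2.41 times that in M2-like and 39.2 times that in ET4-like nuclei.

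Shares of single nuclei gave the same order for T1-like, M2-like and ET1-like nuclei. After each nucleus had been thinned to 3000 UMIs, 36.8% of 2117 T1-like nuclei (95% exact interval 34.7 to 38.9%) had a Ryr1 UMI, with 37.1%, 36.9% and 36.3% in mice 1, 2 and 3; without thinning, at a median of 15750 UMIs, the share was 80.9%. M2-like nuclei stood at 15.97% (13.9 to 18.2%) and ET1-like nuclei at 7.14% (5.35 to 9.31%). In cluster 8, an inhibitory-neuron-like group with a median of 7376 UMIs, 1.13% of thinned nuclei had a Ryr1 UMI (0.635 to 1.86%), and in cluster 0, at a median of 7563 UMIs, 0.45%. The shares of 1.59% in ET4-like, 1.29% in ET2-like and 1.03% in M1-like nuclei had intervals that include the cluster 8 share, the highest of the 10 inhibitory clusters, and are not read as expression; the ET4-like (0.872 to 2.655%) and ET2-like (0.476 to 2.79%) intervals lie above the share in cluster 0. Intervals here cover counting error only.

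**Figure D1:**
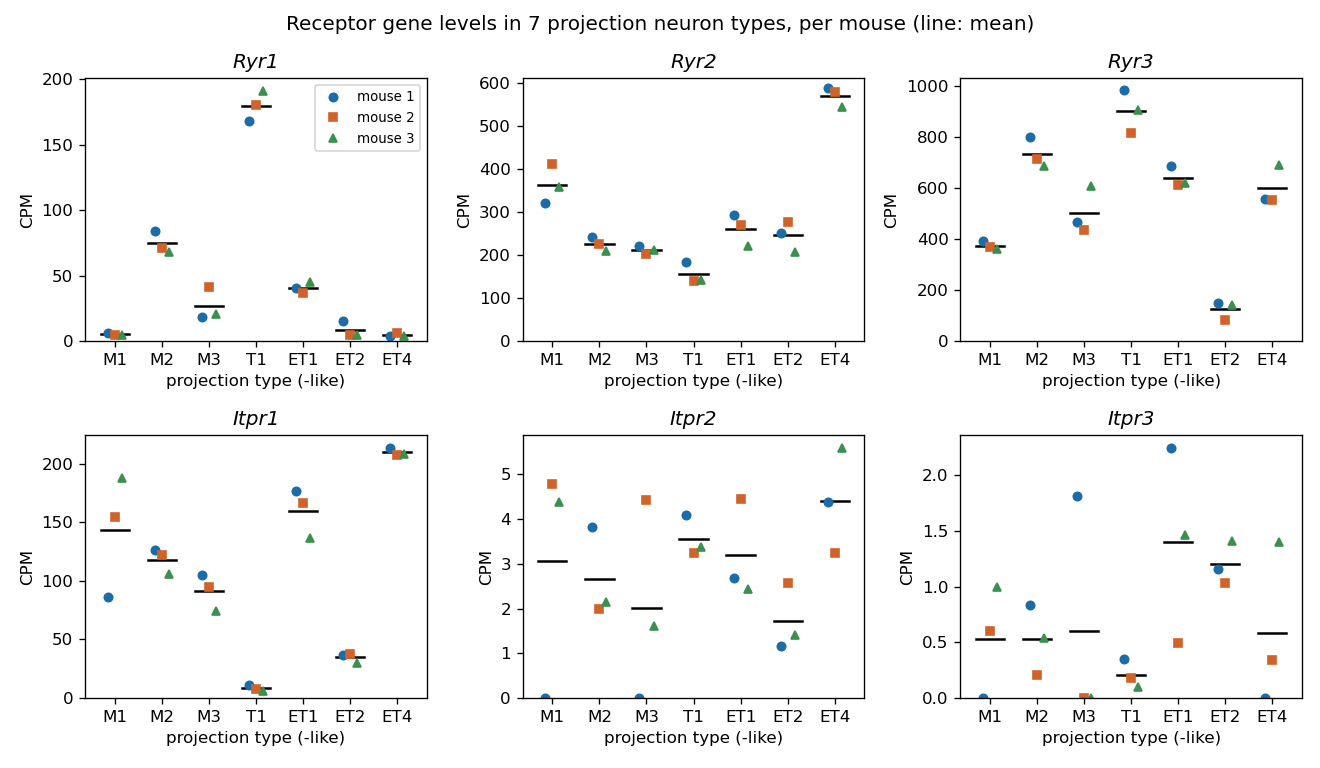
Level of each receptor gene (CPM, linear axis from 0) in the 7 projection types, with 1 point per mouse and a line at the mean of 3 mice. Ryr1 and Ryr3 are highest in T1-like nuclei, where Itpr1 is lowest, and ET4-like nuclei are highest for Ryr2 and Itpr1; the Itpr2 and Itpr3 axes end below 6 CPM.

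Of the 70 Ryr1 UMIs of M3-like nuclei, 63 came from a small set of nuclei that the study's first clustering had placed elsewhere. Of 326 M3-like nuclei, 223 belonged to cluster 5, the parent of most M2-like nuclei, and 70 to cluster 2, the parent of most T1-like nuclei. Ryr1 measured 279 CPM in the 70 nuclei (95% exact Poisson interval 214.5 to 357), with 318 and 159 CPM in mice 2 and 3, and 3.12 CPM in the 223 (6 UMIs, 1.15 to 6.79). The 70 nuclei were shallow, with a median of 2874 UMIs against 8306, and their 9 T1 markers summed to 1072 CPM and their 10 M3 markers to 53.2 CPM, against 34.8 and 1670 CPM in the 223. Their 8 inhibitory neuron markers summed to 1077 CPM, against 327 CPM in the 223, and the part of these in the Ryr1 level was not tested. Without the 70, Ryr1 in M3-like nuclei fell to 1.92, 1.01 and 8.77 CPM in mice 1, 2 and 3, the level of the low group of types. Ryr3 differed less between the same sets, with 434 CPM (352.5 to 529) in the 70 and 514 CPM (483 to 547) in the 223, and Itpr1 measured 57.6 and 92.6 CPM.

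Unnamed subcluster 2, which ranked second for Ryr1 (80.0, 66.5 and 97.2 CPM), was divided along the same line. Its 450 nuclei from cluster 2 held 116 CPM of Ryr1, the 161 from cluster 5 held 41.0 CPM and the 322 from cluster 4 held 18.04 CPM. Itpr1 ran the other way, with 26.1, 110 and 136 CPM. In these 3 sets the 8 inhibitory neuron markers summed to 1970, 1811 and 2359 CPM, compared with 147.5 CPM in the T1-like nuclei of cluster 2. The part of nuclei that hold RNA of more than 1 cell in these values was not tested, and no doublet caller was run. The sort had gated out doublets by light scatter. That gate came before the sequencing libraries were made, and could not remove nuclei that were captured together after the sort.

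**Figure D2:**
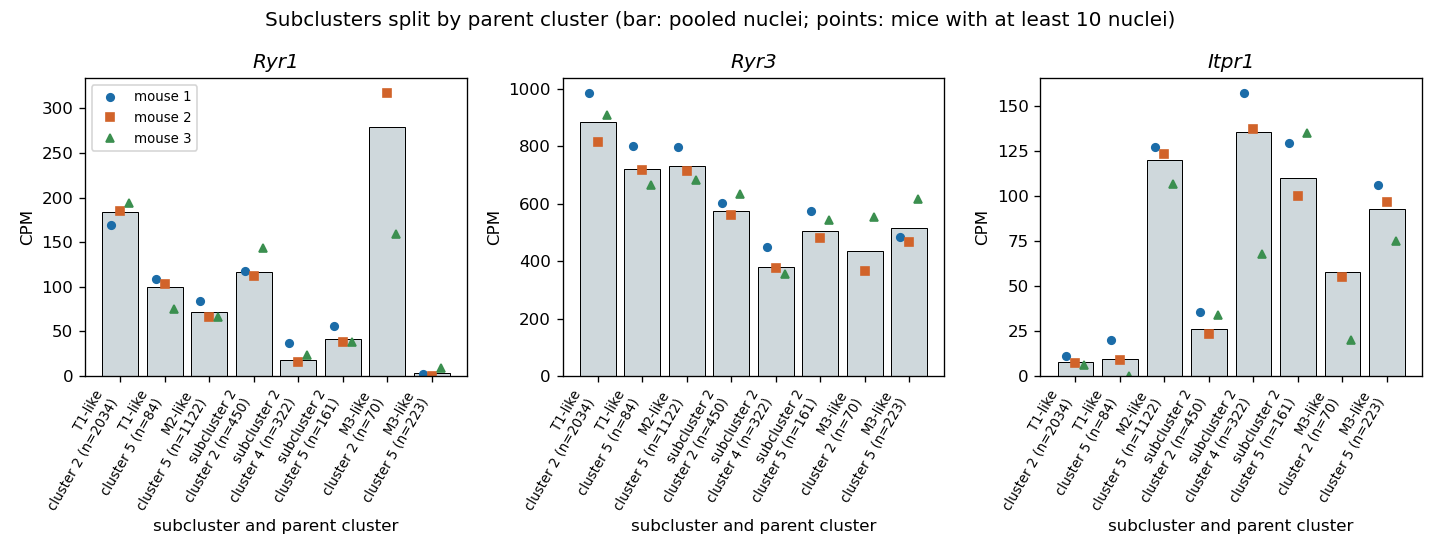
Ryr1, Ryr3 and Itpr1 (CPM) in 4 subclusters divided by the first-round cluster of each nucleus; bars pool all nuclei and points are mice with at least 10 nuclei. Ryr1 is 279 CPM in M3-like nuclei of cluster 2 and 3.12 CPM in those of cluster 5.

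Among the other excitatory subclusters, unnamed subcluster 8 had 64.7, 40.4 and 29.8 CPM of Ryr1, overlapping with the ET1-like libraries. Subcluster 9, which carried the dopaminergic markers of periglomerular cells, had 78.6, 43.5 and 89.3 CPM from 105 UMIs, with only 9 and 8 nuclei in mice 1 and 3. All 10 inhibitory-neuron-like clusters had mean levels between 0.416 and 4.63 CPM. Cluster 19 carried all 5 oligodendrocyte precursor markers searched, but its leading genes (Bcas1, Neu4, Gpr17 and Enpp6 ahead of Pdgfra) include more of differentiating oligodendrocytes, and it is called here by its number. It had a mean of 26.2 CPM, and its libraries read 0, 13.5 and 65.2 CPM from 0, 11 and 8 UMIs, and the microglia-like cluster 20 read 0, 7.11 and 44.9 CPM from 0, 4 and 9 UMIs. Neither mean is larger than its spread over mice. In the left-out cluster 21 the libraries read 0, 3.39 and 224.8 CPM, from 0, 1 and 12 UMIs.

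Ryr2 was highest in 4 inhibitory clusters and, among projection types, lowest in T1-like nuclei. Its maximum was in cluster 6, the cluster with inhibitory and dopaminergic markers, with 1200, 1263 and 1267 CPM. Clusters 0, 3 and 1, the largest inhibitory-neuron-like clusters, followed at 962.5 ± 58.1, 874 ± 34.3 and 687 ± 55.1 CPM; clusters 0 and 3 overlapped. The remaining 6 inhibitory-neuron-like clusters had means between 260 CPM (cluster 10) and 439 CPM (cluster 15), within the range of the projection types. Among projection neurons, ET4-like nuclei stood apart with 588, 578 and 544 CPM, above every library of the other types. M1-like nuclei measured 322, 411 and 358 CPM. The ET1-like, ET2-like, M2-like and M3-like means lay between 261 and 212 CPM, each overlapping with the next, and T1-like nuclei were lowest at 183, 139 and 143 CPM. The range over the 7 types was 3.675-fold, the narrowest of the 4 members that reached 10 CPM in a type.

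Glial clusters also showed Ryr2, with means of 216.2 CPM in the astrocyte-like cluster 9, 186 CPM in the ensheathing-glia-like cluster 11, 142 ± 99.7 CPM in cluster 19, 120 ± 127 CPM in the oligodendrocyte-like cluster 16 and 345.5 ± 167 CPM in cluster 20. The libraries of cluster 16 read 57.5, 265.6 and 35.7 CPM and those of cluster 19 128.9, 247.2 and 48.9 CPM, so that both means rest largely on mouse 2. The 5 means were between 9.62% and 27.8% of the level in cluster 6. In the same 5 clusters Gad1, the GABA-synthesising enzyme of inhibitory neurons, stood at 13.2% to 21.3% of its own maximum, between 157 and 253 CPM. The part of free RNA from inhibitory neurons in the glial Ryr2 level was not tested. In T1-like nuclei, by comparison, Gad1 stood at 2.86% of its maximum and Ryr2 at 12.5%.

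Ryr3 was high in most projection types and in 2 inhibitory clusters. T1-like nuclei had 983, 813 and 903 CPM, and M2-like nuclei 798, 715 and 683 CPM, so that the lowest T1-like library exceeded the highest M2-like library by a narrow margin. ET1-like, ET4-like and M3-like nuclei followed at 637 ± 40.4, 599 ± 78.4 and 502 ± 91.5 CPM, each overlapping with its neighbour in this order, from M2-like down. M1-like nuclei measured 390, 367 and 359 CPM and ET2-like nuclei only 149, 83.1 and 142 CPM; neither overlapped with the type above. In cluster 10, whose leading genes include Klhl1, Inhba and Cartpt, Ryr3 reached 940, 860 and 946 CPM and overlapped with the T1-like libraries. Cluster 6 had 629 ± 81.4 CPM. The other 8 inhibitory-neuron-like clusters had means between 33.6 and 166.5 CPM, and the glial clusters between 61.5 CPM (cluster 16) and 240.5 CPM (cluster 20, with a spread of 161 CPM). These glial means were 6.7% to 26.3% of the Ryr3 maximum. In the same clusters Slc17a7, a marker of projection neurons, stood at 7.2% to 19.5% of its own maximum. The part of free RNA from neurons in the glial Ryr3 level was not tested.

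Itpr1 was lowest, among projection types, in the type that led for Ryr1 and Ryr3. In T1-like nuclei it measured 11.6, 7.78 and 5.86 CPM, and in ET2-like nuclei 37.0, 37.7 and 29.6 CPM. ET4-like nuclei were highest at 214, 208 and 208 CPM, followed by ET1-like nuclei at 177, 166 and 136.5 CPM. M1-like nuclei ranged from 86.6 CPM in mouse 1, from 14 UMIs, to 154 and 188 CPM in mice 2 and 3, and overlapped with the ET1-like and M2-like libraries. M2-like nuclei had 118 ± 11.1 and M3-like nuclei 91.3 ± 15.8 CPM. These were hardly apart: the lowest M2-like library read 105.6 CPM and the highest M3-like library 105.3 CPM, from 58 UMIs. The ET4-like mean was 24.97 times the T1-like mean. Thinned to 3000 UMIs, 42.3% of ET4-like, 26.3% of M2-like and 2.17% of T1-like nuclei had an Itpr1 UMI, and without thinning 70.9%, 73.3% and 8.93%; in inhibitory cluster 15, at 4.44 ± 2.49 CPM the lowest group, the thinned share was 1.01%.

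The highest Itpr1 level of any group was in cluster 10, with 565, 379 and 507 CPM, above every library of every other group with at least 10 nuclei in each mouse. Cluster 18, unnamed because it carried endothelial and mural markers alike and led by Slc6a20a, Ly6c1 and Dcn (the last a gene of fibroblasts), had 276 ± 75.9 CPM, cluster 11 had 266 ± 63.7 CPM and cluster 8, led by Foxp2 and Calb1, had 224 ± 34.3 CPM; these overlapped. The large clusters 0 and 3 had 23.9 ± 5.29 and 17.7 ± 4.27 CPM. Cluster 10 thus had the highest mean of Itpr1 and, overlapping with T1-like nuclei, of Ryr3, while its Ryr2 level was 222.5, 366 and 192 CPM.

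A gene on the opposite strand of Itpr1, Gm44040 (chr6:108519029-108525687), had the profile most like it, with Pearson's r of 0.90 over 23 groups and a maximum of 26.0 CPM, also in cluster 10. Because the sources used here do not state how strand was counted, reads of the 2 genes may not be fully told apart. Other overlapping genes were low: Gm26604, opposite Ryr1, reached 5.06 CPM at most and Itpr3os, opposite Itpr3, 0.0657 CPM. Aven, opposite the last part of Ryr3, reached 49.6 CPM.

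Itpr2 and Itpr3 were low in all projection types and highest in non-neuronal clusters. Itpr2 measured 736, 459 and 587 CPM in cluster 19, led by Bcas1, Neu4 and Gpr17, above all other groups. Cluster 18 had 183 ± 65.0 CPM, the microglia-like cluster 20 had 168 ± 9.79 CPM and the astrocyte-like cluster 9 had 159 ± 34.6 CPM, with overlapping libraries. In cluster 16, oligodendrocyte-like, the libraries differed widely (9.58, 13.2 and 157 CPM), and the high value of mouse 3 rests on 22 UMIs. Cluster 12 was the only inhibitory-neuron-like cluster with a mean above 22 CPM, at 54.8, 48.5 and 54.3 CPM. All 7 projection types had means between 1.72 and 4.41 CPM, and neighbours in that order overlapped. At equal depth, 64.0% of cluster 19 nuclei (55.8 to 71.7%) and 32.0% of cluster 9 nuclei (29.1 to 35.0%) had an Itpr2 UMI, compared with 1.32% of T1-like and 0.785% of M2-like nuclei; the unthinned shares were 81.5%, 42.3%, 5.17% and 4.96%, at median depths of 7811, 5211, 15750 and 20780 UMIs.

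Itpr3 was highest in the ensheathing-glia-like cluster 11, followed by clusters 20 and 18. Cluster 11 measured 59.9, 50.7 and 69.1 CPM. Clusters 20 and 18 had 15.9 ± 14.5 and 11.6 ± 6.78 CPM, from 7 and 12 UMIs. Every other group with at least 10 nuclei in each mouse had a mean under 1.5 CPM. No Itpr3 UMI was found in cluster 19, which allows a level of up to 2.195 CPM (3 counts over the UMIs of the cluster). In 14.5% of thinned cluster 11 nuclei (12.3 to 17.04%) an Itpr3 UMI was present, and in 24.1% without thinning, with 0.205% and 0.352% in the astrocyte-like cluster 9, at median depths of 5022 and 5211 UMIs.

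**Figure D3:**
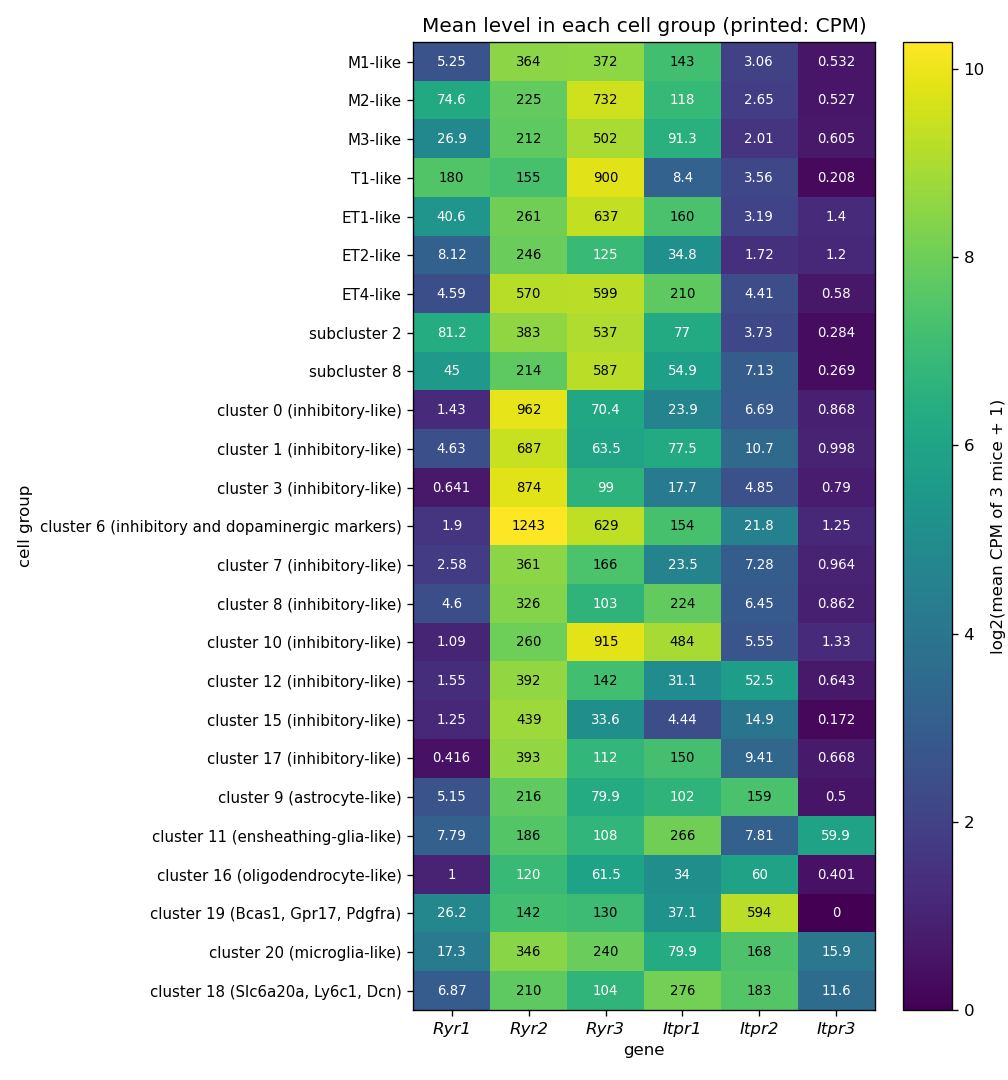
Mean level of the 6 genes in 25 groups, printed in CPM and coloured by log2(CPM + 1), each the mean of 3 mice. Ryr1 is bright in T1-like and M2-like nuclei, Ryr2 in clusters 6, 0, 3 and 1, Itpr2 in cluster 19 and Itpr3 in cluster 11.

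UMIs are counted near the 3′ end, so that gene length matters for comparing genes mainly if intronic reads were counted. The sources used here do not say whether they were. In plain CPM, Ryr3 (899.6 ± 85.2) lay well above Ryr1 (179.7 ± 11.7) in T1-like nuclei. Per length, the order depends on the length used. Per kb of gene span, Ryr1 (1.48 ± 0.0957) and Ryr3 (1.54 ± 0.146) overlapped in T1-like nuclei, where Ryr2 had 0.28 and Itpr1 0.0249. Per kb of the longest transcript, a scale added after the values had been seen, Ryr3 (58.2 ± 5.51) was 4.97 times Ryr1 (11.7 ± 0.759) in the same nuclei, and Ryr2 had 9.22 ± 1.45. In ET4-like nuclei Ryr2 (1.03 ± 0.0422) and Ryr3 (1.02 ± 0.134) overlapped on the span scale, followed by Itpr1 (0.621 ± 0.01), and on the transcript scale they measured 33.9 ± 1.39, 38.7 ± 5.07 and 21.3 ± 0.343. Ryr2 accounted for 88.2% of the summed level of the 6 genes per kb of span in cluster 0 and for 8.41% in T1-like nuclei, and for 88.1% and 11.5% per kb of transcript. Because of the counting near the 3′ end, the values per length are approximate, and the overlap of Ryr1 and Ryr3 holds on the span scale only.

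The members differed in their highest type, which was T1-like for Ryr1 and Ryr3 and ET4-like for Ryr2 and Itpr1. For all 4, which are the members that reached 10 CPM in some type, the 3 libraries of the highest type lay above the 18 libraries of the other types. Of 11243 genes with at least 10 CPM in their highest type, 21.1% met the same criterion. Of 5044 genes with at least 50 CPM, a level that all 4 members passed, 29.7% met it. With 1 CPM added to both, the median ratio of the highest to the lowest type was 14.8 for the 4 members and 2.21 for the 11243 genes. This ratio was not taken over genes of like level. For Itpr1 the separation was lost with TMM scaling.

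When the 7 types were summed and compared with the 10 inhibitory-neuron-like clusters within each mouse, the ryanodine receptors diverged. Ryr1 measured 89.8 ± 9.60 CPM in projection and 2.36 ± 0.813 CPM in inhibitory nuclei, with log2 ratios of 4.81, 5.01 and 4.52 in mice 1, 2 and 3 (mean 4.78 ± 0.245). Ryr3 measured 691 ± 95.1 and 165 ± 16.6 CPM, with a mean log2 ratio of 2.06 ± 0.139. Ryr2 differed the other way, at 256 ± 24.2 against 774 ± 32.4 CPM, with log2 ratios of -1.49, -1.54 and -1.76 (mean -1.60 ± 0.145). Itpr1 differed by less than its spread over mice, at 92.9 ± 5.70 and 84.0 ± 10.5 CPM (mean log2 ratio 0.15 ± 0.238). Itpr2 was low on both sides, at 3.39 and 10.2 CPM (mean log2 ratio -1.35 ± 0.0567), and Itpr3 did not reach 10 CPM. These sums weigh each group by its UMIs. The projection level of Ryr1 rests mostly on T1-like nuclei (6481 UMIs) and M2-like nuclei (1895 UMIs). ET4-like, M1-like and ET2-like nuclei had means of only 4.59, 5.25 and 8.12 CPM. The inhibitory level of Ryr2 rests on clusters 0, 1, 3 and 6, and the remaining clusters had means between 260 CPM (cluster 10) and 439 CPM (cluster 15).

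By the rule that the mean log2 ratio exceeds 1 in size and all mice share its sign, 2 of the 5 members that reached 10 CPM on either side were higher in projection nuclei (Ryr1 and Ryr3) and 2 were lower (Ryr2 and Itpr2). Over 10271 genes, 10.9% were higher and 15.3% lower by this rule, and the median log2 ratio was -0.16. The Itpr2 call rests on a level at the 10 CPM minimum and was lost under 7 other processing settings, among them leaving out mouse 1 or mouse 2. Without clusters 6, 10 and 12, a choice made after the values had been seen, the Ryr3 ratio rose to 3.06, and Itpr2 (-0.96) was no longer called.

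The comparison of mitral with tufted types gave smaller ratios. Over the mean of 3 mitral types and the mean of 4 tufted types, Ryr1 measured 35.6 ± 3.99 and 58.3 ± 2.70 CPM (mean log2 ratio -0.70 ± 0.222, lower in all 3 mice), Ryr2 267 and 308 CPM (-0.20 ± 0.115), Ryr3 535 and 565 CPM (-0.08 ± 0.0437) and Itpr1 117 and 103 CPM (0.18 ± 0.210). None of the 4 members that reached 10 CPM was called in either direction, where 3.57% of 9974 genes were higher and 4.77% lower in mitral types. These averages cover types that differ from each other: among mitral types Ryr1 ran from 5.25 CPM in M1-like to 74.6 CPM in M2-like nuclei, and among tufted types Itpr1 ran from 8.403 CPM in T1-like to 210 CPM in ET4-like nuclei. When UMIs were summed over nuclei instead, so that the abundant T1-like nuclei weigh more, Ryr1 was lower (-1.16) and Itpr1 higher (1.04) in mitral nuclei and both were called. Without the 70 M3-like nuclei of cluster 2, Ryr1 was also called lower (-1.04).

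**Figure D4:**
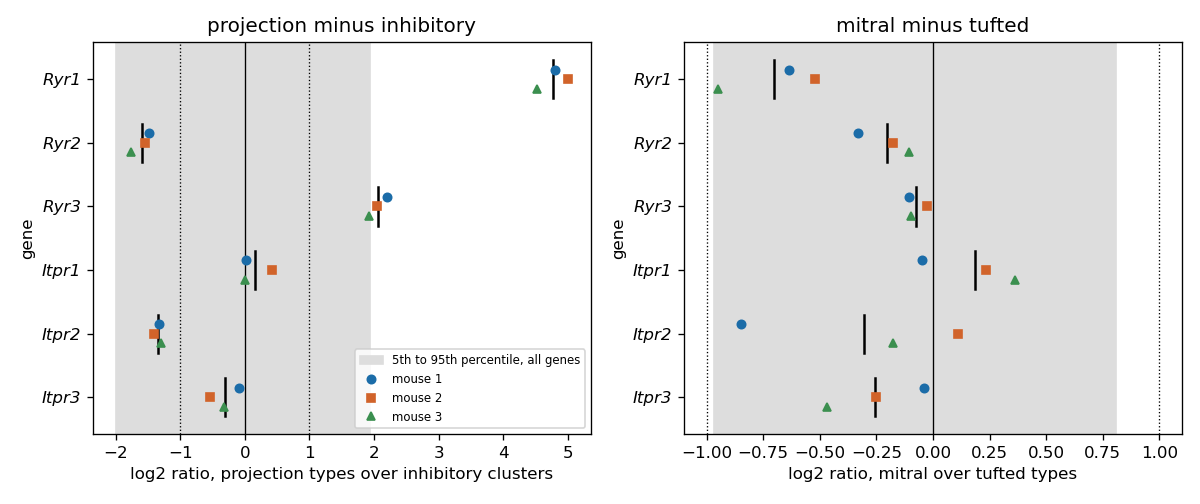
Within-mouse log2 ratios (1 CPM added) of each receptor gene for projection types over inhibitory clusters and for mitral over tufted types, with 1 point per mouse and a line at the mean; grey spans the 5th to 95th percentile of all genes with at least 10 CPM on either side and dotted lines mark a log2 ratio of 1 in size. Ryr1 lies at 4.78 in the first comparison, and no member passes 1 in the second.

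The genes around the receptors were taken from 8 lists of calcium handling genes, 107 in all. Of 68 list genes that reached 10 CPM in the comparison of projection and inhibitory nuclei, 7 (10.3%) were higher in projection nuclei and 21 (30.9%) were lower, beside 10.9% and 15.3% of all genes.

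Among the partners of ryanodine receptors, 1 of 14 was higher in projection nuclei and 6 were lower. The higher gene was Fkbp1b, whose product FKBP12.6 binds the channel (16.8 and 2.58 CPM, log2 ratio 2.27 ± 0.491). Over the types it measured 25.3 ± 5.67 CPM in T1-like, 19.8 ± 4.61 in M2-like and 12.8 ± 3.95 CPM in ET1-like nuclei, with 6.175 CPM in ET4-like, 3.93 in ET2-like, 3.86 in M3-like and 0.758 CPM in M1-like nuclei. The T1-like libraries were not apart from those of the other types. The junctophilin gene Jph4 (-3.42 ± 0.756) and the L-type calcium channel gene Cacna1c (-3.23 ± 0.245) had the largest ratios on the lower side, and the calmodulin genes Calm2 (-1.45) and Calm3 (-1.24) followed. Cacna1s, the channel coupled to RyR1 in skeletal muscle, was at 4.48 CPM or less in all types.

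For IP3 production, 2 of 13 genes were higher and 7 lower. The serotonin receptor gene Htr2a was among the higher genes (46.2 ± 12.2 and 19.75 ± 4.21 CPM, 1.17 ± 0.144). Grm5 (-4.31 ± 0.694), the phospholipase C gene Plcb1 (-4.25 ± 0.482) and the muscarinic receptor genes Chrm3 (-3.82 ± 1.01) and Chrm1 (-3.43 ± 0.345) were lower.

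The partners of IP3 receptors divided evenly, with 2 of 11 genes on each side. Bcl2 (2.60 ± 0.208) and Ssfa2 (1.58 ± 0.389), which encodes a protein that anchors IP3 receptors to actin, were higher in projection nuclei, and the scaffold genes Homer2 (-2.46 ± 0.323) and Homer1 (-1.62 ± 0.258) were lower. Inpp5a, an enzyme that removes IP3, was the 1 called gene of 5 in its list (1.41 ± 0.215). Of 7 plasma membrane extrusion genes 3 were lower, the exchanger Slc8a1 (-2.72 ± 0.551) and the pumps Atp2b1 (-2.43 ± 0.178) and Atp2b2 (-1.01 ± 0.0321). Mitochondrial uptake had the channel gene Mcu higher (1.10 ± 0.122) and its inhibitory paralog Mcub lower (-3.38 ± 0.648), with Vdac3 (-1.11) and Vdac2 (-1.05) also lower, of 10 genes. None of 3 endoplasmic reticulum pump and leak genes and none of 5 genes of store-operated entry was called. The pump gene Atp2a2, which refills the stores, lay between 98.4 CPM (M2-like) and 183 CPM (ET2-like).

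In the comparison of mitral with tufted types, 4 of 67 list genes (5.97%) were higher and 5 (7.46%) lower, beside 3.57% and 4.77% of all genes. Trdn, whose product triadin anchors calsequestrin to the ryanodine receptor in muscle, was higher in mitral types (108 ± 10.9 and 12.8 ± 3.37 CPM, log2 ratio 3.01 ± 0.424), with 207 CPM in M2-like, 64.2 in M1-like and 54.3 CPM in M3-like nuclei and at most 18.1 CPM in a tufted type. Outside the projection types it measured 430 CPM in cluster 10, 231 CPM in cluster 12 and 195 CPM in cluster 1. Jph1, another junctophilin, was lower in mitral types (-1.77 ± 1.56), a ratio hardly larger than its spread, and peaked in ET2-like nuclei at 90.6 CPM. Plce1 (2.13 ± 0.501) and Plch2 (2.12 ± 0.404) were higher in mitral types; Plce1 rested on M1-like nuclei (41.1 CPM, and at most 3.39 CPM elsewhere). Grm5 (-2.28 ± 0.541) rested in the same way on ET2-like nuclei (698 CPM, and at most 70.9 CPM elsewhere). Adra1a (-1.38 ± 0.817) and Adra1b (-1.40 ± 0.798) were lower too. Adra1b also rested on ET2-like nuclei (60.4 CPM, and at most 8.34 CPM in another type). Slc8a1 was lower (-1.48 ± 0.168), with 861 CPM in ET4-like and 25.6 CPM in M2-like nuclei, and Atp2b4 was higher (1.69 ± 0.191).

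**Figure D5:**
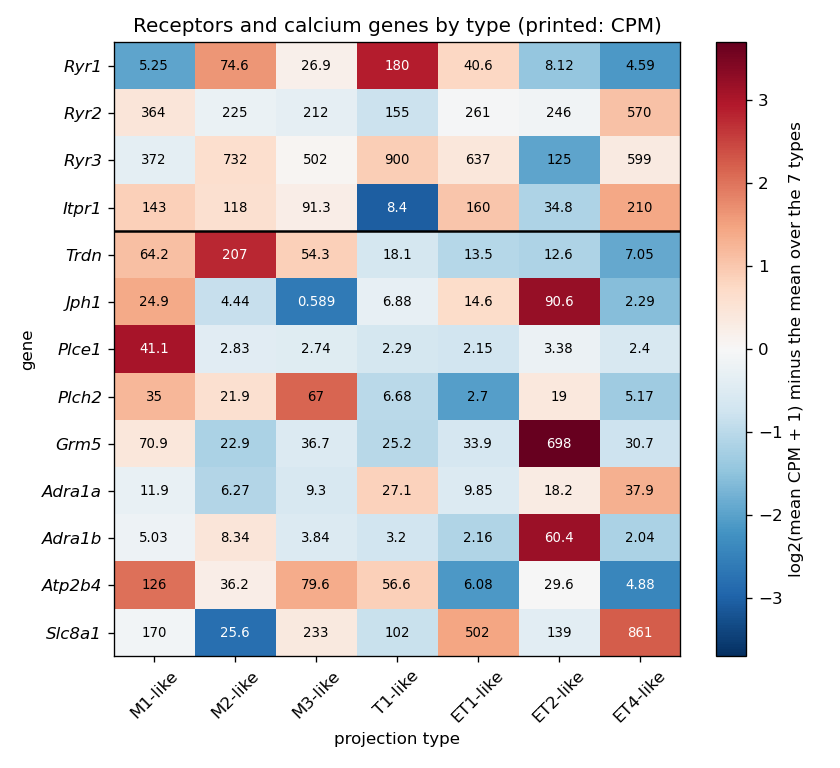
Mean level (CPM, printed) in the 7 types of the 4 receptor genes that reached 10 CPM and of the 9 list genes called between mitral and tufted types; colour is log2(CPM + 1) minus its mean over the types. Ryr1 and Itpr1 differ most in T1-like nuclei, and Trdn is highest in M2-like nuclei.

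Over the 7 types, 27 of 71 list genes (38.0%) had their highest type apart from all other libraries, beside 21.1% of all genes. ET4-like nuclei, which led for Ryr2 and Itpr1, also led without overlap for several list genes of different lists. Among them were Cacna1d (1089 CPM), Plcb4 (468 CPM), Ahcyl2 (242 CPM), Vdac1 (221 CPM), Homer1 (110 CPM), Adra1a (37.9 CPM), Impa2 (10.4 CPM) and Slc8a1.

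In the 23 groups compared for likeness, 3 genes per member had the highest Pearson's r of log2(CPM + 5) among 14624 genes. The points share the 3 mice and the same libraries. For Ryr1 they were 4930402D18Rik (0.97), Otop2 (0.94) and A1bg (0.94), all highest in T1-like nuclei. The first and the third overlap each other in part, on opposite strands of chromosome 15, so that their reads may not be fully told apart. For Ryr2 they were Cacna1d (0.89), Ndrg4 (0.87) and Pde6a (0.82), and for Ryr3 they included Map1b (0.79) and Fam222b (0.78). Itpr1 had, after Gm44040, Rbm43 (0.75) and Lrrk2 (0.75). Itpr2 had Tcf7l2 (0.86), Zcchc24 (0.86) and Wipf1 (0.85), all highest in cluster 19, and Itpr3 had Fam212a (0.98), Ifi27l2a (0.97) and Kctd12 (0.95), all highest in cluster 11. Between members, r was 0.55 for Ryr1 and Ryr3 and -0.50 for Ryr1 and Ryr2, and lay between -0.35 and 0.37 for the other pairs.

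Within T1-like nuclei the other ryanodine receptor genes were detected about as often in nuclei with Ryr1 as in all nuclei. Thinned to 3000 UMIs, 671 of 779 nuclei with a Ryr1 UMI (86.1%) also had a Ryr3 UMI, as did 86.2% of all 2117 nuclei. A Ryr2 UMI was present in 33.8% of the nuclei with Ryr1 and in 33.7% of all.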

How the data were processed

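The deposited count matrices, 1 per mouse, are unnormalized UMI counts from Cell Ranger (version 3.0.2 in the matrix header; builds mm10 and GRCm38 in the submitters' processing notes), run by the authors; whether intronic reads were counted is not given in the sources used here. A deposited table lists retained nuclei with mouse, cluster, subcluster and the authors' percent of mitochondrial UMIs (at most 4.58%); 8 of its columns were not used. The mice had 5845, 21105 and 4753 nuclei and 58526996, 213891496 and 62929479 UMIs. Each library is from 1 animal, so that SDs are over 3 mice.

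Counts were summed per mouse and group (Python 3.11.15, numpy 2.4.6, scipy 1.17.1), divided by the total, and compared as within-mouse log2 ratios with 1 CPM added; the mean had to exceed 1 in size with 3 mice agreeing in sign, among genes with at least 10 CPM on either side. No p-value was computed. No doublet caller was run. The statistics were tested on simulated counts. Members, gene lists and rules were chosen with earlier results of these data known, and the naming rule for clusters was set after values were seen. Named genes are the 6 members, the 3 genes most like each, and up to 4 called genes per list, contrast and direction with the largest ratios; others named were chosen after their values were seen. One gene that this rule names is not reported here. Alternatives were TMM factors (edgeR 4.0.16), totals without Malat1 and mitochondrial genes, per-nucleus means, nuclei thinned to 3000 UMIs (1154 nuclei left out), 1500 genes per nucleus, other pseudocounts and minimum levels, and leaving out each mouse.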

Additional observations from a re-analysis of the deposited data

How the results depend on the processing

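The ratios were taken within each mouse and so pair the libraries. Without this pairing, as the ratio of means over mice with no replicate block, the log2 ratio of Ryr1 between projection and inhibitory nuclei was 4.755 in place of 4.78, and the numbers of called members stayed at 2 higher and 2 lower for projection against inhibitory nuclei and at 0 and 0 for mitral against tufted types. The number of members with a separate highest type was 4 and became 3 with TMM factors (Itpr1 lost). The number called lower in projection nuclei was 1 in place of 2, through Itpr2, with TMM factors, per-nucleus means, nuclei thinned to 3000 UMIs, genes with at least 50 CPM, a pseudocount of 5 CPM and, added after seeing the data, without clusters 6, 10 and 12; it ranged from 1 to 2 when each mouse was left out, being 1 without mouse 1 and without mouse 2. Between mitral and tufted types, 1 member was called higher and 1 lower with UMIs summed over nuclei, and 1 lower without the M3-like nuclei of cluster 2, also added after seeing the data. No called member changed sign. Of the values of single genes under an alternative, 186 moved by less than 1 SD over mice and 31 by more; the cause was not tested. Per kb of the longest transcript in place of the span, added after seeing the data, the ratio of Ryr3 to Ryr1 in T1-like nuclei was 4.97 in place of 1.04. Depth limits the clusters with few nuclei, such as cluster 20 with 146.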
